A study of Schizosaccharomyces pombe with 30 samples.

Results

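The comparison described here is H3K9me2 chromatin immunoprecipitation (ChIP) from fission yeast cells lacking fkh2 against the wild-type parent, over all 1500 of the 1500 windows of 300 bp that the filtered table holds. The members were chosen by strain: 3 fkh2 libraries (A, B and C) and 2 wild-type libraries (WT B and WT C), 5 of the 13 ChIP libraries in the tables and of the 30 samples of the series. The wild-type was strain PAS332 and the mutant strain PAS798, and both carried the MAT ΔREIII reporter background. In it an ade6 promoter drives SF-GFP at cenH and mKO2 at mat3m, ade6p:3xE2C:hygMX sits at Locus2 as a reference, and both binding sites in the REIII element are deleted. The wild-type is listed as h90, and in the mutant fkh2 is replaced by natMX. Cells were grown in logarithmic phase in rich YES medium and no drug or other agent was given. A genotype is represented by 1 strain in each group, and the libraries are named by letters. The study calls its replicates biological, but the labels do not say what a letter stands for. Permutation p-values measure the spread between these 5 libraries. The edgeR p-values and standard errors come from fits on all 13 ChIP libraries, so they also reflect the spread within the other genotypes. The fkh2 gene lies in a region that was left out of the counts, so the deletion could not be checked in the data.

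Histone H3 methylated at lysine 9 marks heterochromatin in fission yeast, where it is deposited by the Clr4 methyltransferase and bound by HP1 proteins such as Swi6. It starts at nucleation elements, among them the pericentromeric repeats, the cenH element of the mating type region and the tlh helicase genes near the telomeres, and spreads from there over neighbouring genes. Smaller islands form on meiotic genes whose transcripts are removed in growing cells by the RNA-binding protein Mmi1. Fkh2 is a forkhead transcription factor that controls cell cycle genes and is found with the Clr6 histone deacetylase, and the comparison asks where H3K9me2 depends on it.

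The libraries differed in how much of their signal lay in the windows. Between 6171299 and 10737573 fragments were counted per library over the 5 kb bins that tile the genome. The windows held 70.2% of them in WT B and 57.3% in WT C, against 30.8%, 50.5% and 36.9% in fkh2 A, B and C. Counts were divided by size factors from the 5 kb bins (normalised counts), which left the background per window at 105 to 106 in every library. Enrichment is the normalised count over that background. Averaged over all windows it was 68.1-fold and 37.4-fold in WT B and WT C, and 11.9-fold, 27.7-fold and 15.7-fold in fkh2 A, B and C. The wild-type libraries therefore differed from each other by more than WT C differed from fkh2 B. Above background WT C held between 53.0% and 59.7% of the WT B signal in each of the 12 places into which the windows were divided.

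H3K9me2 was lower in fkh2 at the pericentromeres, the subtelomeres of chromosomes I and II, the mating type locus and the meiotic islands, and was not lower at the chromosome III ends. In edgeR's quasi-likelihood test over all windows, 540 of 1500 windows (36%) were called reduced and 2 (0.133%) increased. A call needed an adjusted p (Benjamini-Hochberg) under 0.005 and a log2 fold change larger than 1 in either direction. All 3 fkh2 libraries lay below both wild-type libraries at 976 windows (65.1%) and above both at 37 (2.47%). The median log2 fold change was -1.38. The number of calls depended strongly on the fit. It was 58 when only these 5 libraries entered the edgeR fit, 376 with DESeq2 on those 5, 224 without WT B and 949 without fkh2 B. With total counts as the scaling 373 windows were called reduced and 146 increased, and the median moved from -1.38 to -0.59.

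A call was also easier to reach at intermediate levels. Outside the chromosome III ends and the scattered arm sites, 229 of 262 windows with wild-type enrichment of 5-fold to 20-fold (87.4%) passed as reduced, and their log2 fold changes had a median of -1.75. Among the 480 windows above 60-fold only 53 were called (11.0%), although their median was -1.74. For this reason each place below is described by its levels and by the share of wild-type enrichment kept, and not by calls alone. The share kept is the background-subtracted level in a fkh2 library over the wild-type mean.

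**Figure D1:**
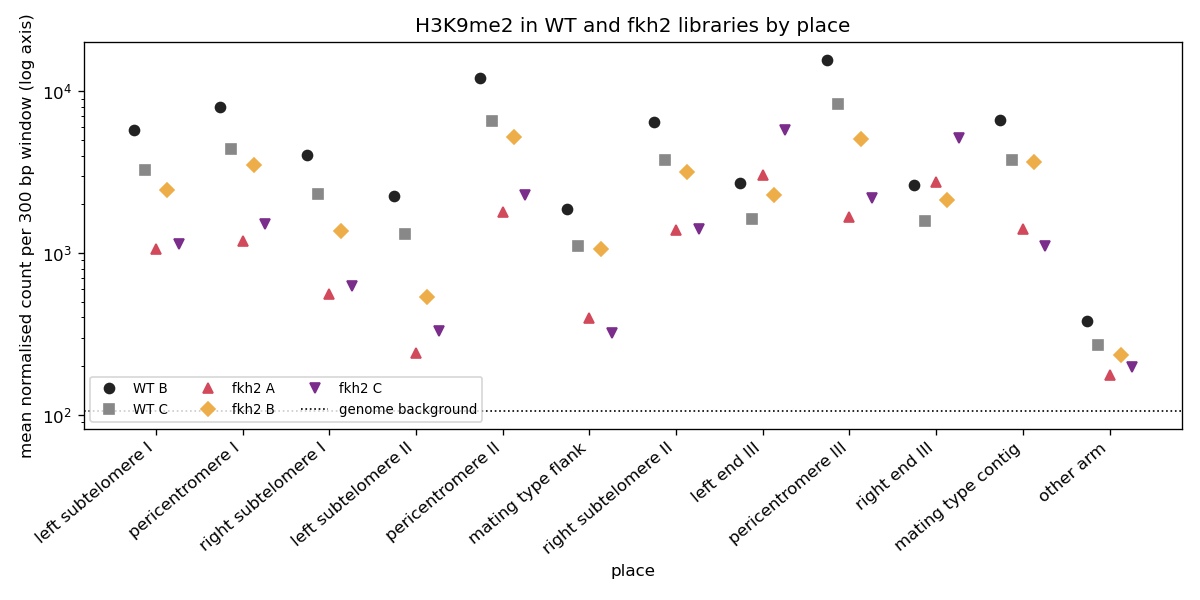
Mean normalised count per 300 bp window (log axis) in each of the 12 places, with 1 point per library and the genome background as a dotted line. The fkh2 libraries lie below both wild-type libraries in most places, fkh2 B lies highest among them, and at both ends of chromosome III fkh2 C lies above every other library.

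At the pericentromeres the mark was lower in every fkh2 library than in either wild-type library, and the loss was larger on chromosome III. Over the 278 windows of pericentromere III the mean normalised count per window was 15574 and 8303 in WT B and WT C, and 1672, 5084 and 2180 in fkh2 A, B and C. The groups did not overlap, and the share kept was 24.3% ± 15.6 (SD, n = 3), or 15.4% without fkh2 B and 35.0% without WT B. At pericentromere I (174 windows) the values were 8022 and 4360 against 1181, 3503 and 1514, a share of 32.2% ± 20.6. At pericentromere II (156 windows) they were 12022 and 6548 against 1785, 5210 and 2277, a share of 32.5% ± 20.2. The log2 difference was -2.10 for chromosome III and -1.68 for I and II, each with p = 0.2 in a two-sided exact permutation test over the 5 libraries, whose smallest possible p is 0.1.

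The difference between the pericentromeres was far steadier than their levels. The log2 ratio of pericentromere III to the sum of all pericentromeres was -0.812 and -0.825 in WT B and WT C, and -1.03, -1.005 and -1.015 in fkh2 A, B and C. That ratio needs no scaling between libraries, and its SD was 0.0091 in the wild-type and 0.0125 in fkh2. It fell by 0.20 in fkh2 (p = 0.1, exact permutation test, the smallest the design allows). The shares of pericentromeres I and II, which must rise where that of III falls, were higher by 0.22 each and are no further support. With medians over windows in place of sums the difference for pericentromere I turned to -0.26. Window by window, 260 of 278 windows of pericentromere III lay below both wild-type libraries, against 136 of 174 on I and 113 of 156 on II.

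tRNA genes cluster at fission yeast centromeres, where they flank the central core and several act as barriers between chromatin domains. Windows overlapping a tRNA gene made up 55 of the 608 pericentromeric windows, and 50 of them were called reduced (90.9%). All 55 lay below both wild-type libraries, with log2 fold changes from -3.86 to -1.49. Windows centred in protein-coding genes were called in 88 of 121 cases, and the remaining windows in 80 of 432. The annotation used does not mark the centromeric repeats or the core, so these remaining windows were not divided further. The 3 classes differ in wild-type level: WT B enrichment averaged 51.2-fold over tRNA windows, 6.22-fold over coding windows and 159-fold over the rest, so the counts of calls are not comparable as sizes of change. The share kept was 9.03%, 37.9% and 9.74% over tRNA windows in fkh2 A, B and C, against 15.5%, 48.3% and 20.5% over the remaining windows. Within a library the background-subtracted log2 ratio of tRNA to remaining windows was -4.63 and -4.49 in the wild-type, and -5.36, -4.93 and -5.65 in fkh2. The groups did not overlap and differed by -0.76 (exact permutation p = 0.2, two-sided). The pericentromeric repeats occur in several near-identical copies, and reads from them cannot be assigned to one copy with certainty.

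The tRNA windows with the strongest loss on chromosomes II and III are shown because they carry the lowest fold change of any window in their pericentromere. Capitals mark the annotated tRNA genes. The chromosome III window overlaps a phenylalanine tRNA gene (SPCTRNAPHE.05), and the chromosome II window overlaps an asparagine tRNA gene (SPBTRNAASN.01) and part of a methionine tRNA gene (SPBTRNAMET.05). Sequences were read 5′ to 3′ on the forward strand from the RefSeq assembly ASM294v3, whose chromosome lengths equal the ends of the last bins in the tables.
chrIII:1142101-1142400: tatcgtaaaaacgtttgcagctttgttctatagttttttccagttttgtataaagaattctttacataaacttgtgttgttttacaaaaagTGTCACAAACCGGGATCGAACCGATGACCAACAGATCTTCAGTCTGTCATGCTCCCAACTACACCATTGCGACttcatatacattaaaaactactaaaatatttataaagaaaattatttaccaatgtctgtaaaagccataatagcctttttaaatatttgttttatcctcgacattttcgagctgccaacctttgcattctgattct
chrII:1597801-1598100: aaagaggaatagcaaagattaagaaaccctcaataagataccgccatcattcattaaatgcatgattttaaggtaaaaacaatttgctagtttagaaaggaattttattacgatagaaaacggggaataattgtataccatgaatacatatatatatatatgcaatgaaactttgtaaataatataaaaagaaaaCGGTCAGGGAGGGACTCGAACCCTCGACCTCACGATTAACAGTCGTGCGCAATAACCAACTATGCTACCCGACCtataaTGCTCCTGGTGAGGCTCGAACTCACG

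The phenylalanine tRNA window stood at 9001 and 5133 normalised counts in WT B and WT C, and at 224, 1065 and 175 in fkh2 A, B and C. Its log2 fold change of -3.86 (SE 0.60, edgeR adjusted p = 5.56e-09) was the lowest of all 1500 windows. In fkh2 A and C it stood near 2 times background, and in every setting tried it was called reduced. The asparagine and methionine tRNA window held 2908 and 1746 counts in the wild-type and 227, 735 and 176 in fkh2, a log2 fold change of -2.62 (SE 0.47, edgeR adjusted p = 3.81e-07). Both windows lay on the sides of their pericentromere, away from the core gaps.

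**Figure D2:**
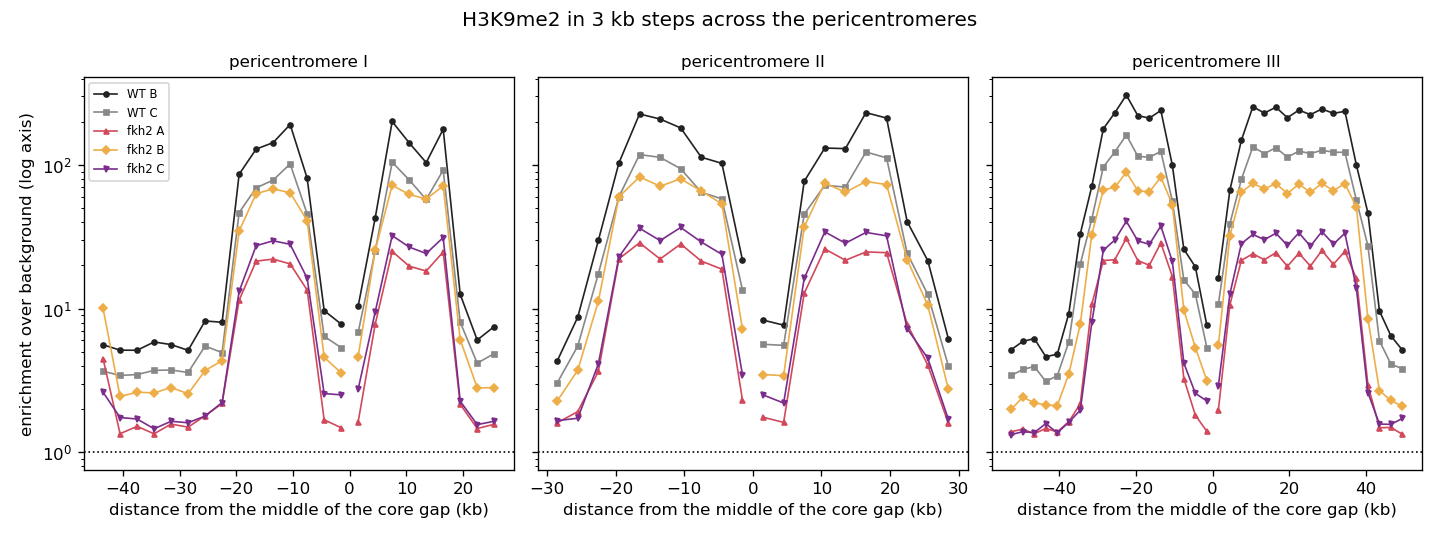
Enrichment over background (log axis) in 3 kb steps against the distance from the middle of the core gap, one panel per pericentromere and one line per library. The plateaus on both sides of the core stay enriched in every fkh2 library, while the outer shoulders approach background (dotted line) in fkh2 A and C.

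The outer right shoulder of pericentromere III kept the smallest share of the steps along the pericentromeres. Between 40 and 60 kb to the right of the core gap, WT B and WT C enrichment was 17.2-fold and 10.3-fold, against 1.73-fold, 3.61-fold and 1.73-fold in fkh2 A, B and C, and all 22 windows were called reduced. The share kept there was 10.7%, compared with 22.3% between 10 and 20 kb on the same side. ppc1 and cbp3, on that shoulder, had the lowest log2 fold changes of the pericentromere III genes with 2 or more windows (-1.95 and -1.90). mid1, which encodes the anillin-like organiser of the division site, was reduced over 8 of 8 windows, with 645 and 418 counts per window in the wild-type and 158, 242 and 172 in fkh2 (log2 fold change -1.48, edgeR adjusted p = 0.00063). gid1, on the left side, had the highest value among such genes with separated groups, and was still reduced (-1.15). Each core gap, where no window was retained, lies in a 5 kb bin that was called reduced as well. These bins also hold retained windows beside the gap, least so on chromosome II, so the calls do not show a loss within the gap itself. The bin over the chromosome II gap, from 1620001, stood at 5.09 and 3.97 times the median bin in the wild-type and at 0.94, 2.17 and 1.41 times in fkh2.

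At pericentromere I 7 of 13 genes were called reduced, and at pericentromere II 14 of 15. Per gene, counts were summed over the windows centred in it, and long non-coding RNA genes were left out. tRNA genes were kept, so these counts partly repeat the tRNA windows above. The lowest gene value at each pericentromere belonged to a tRNA gene (-2.06, -2.51 and -3.86 on I, II and III). In edgeR's quasi-likelihood test 96 of 174 genes (55.2%) were called reduced and 1 (0.575%) increased. Without WT B 39 genes were called reduced. emc5, for an endoplasmic reticulum membrane complex subunit, and sdh1, for a succinate dehydrogenase subunit, had the lowest log2 fold changes at pericentromere I among genes with 2 or more windows and separated groups (-1.86 and -1.58). yox1, a repressor of cell cycle transcription, and the ribosomal protein gene rps402 had the lowest at pericentromere II among such genes (-1.22 and -1.07). per1, an amino acid transporter gene, and rpb1, which encodes the largest subunit of RNA polymerase II, had the highest among such genes at I and II and were not called (-1.11 and -1.02, adjusted p = 0.0139 and 0.0176). The single lowest window of pericentromere I lay in rad50, a gene of double-strand break repair, at 1280 and 926 against 103, 318 and 95 counts.

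One stretch at the left edge of pericentromere I went the other way, most strongly in fkh2 B. Over vps29, a retromer gene, WT B and WT C held 606 and 394 counts per window, and fkh2 A, B and C held 547, 1230 and 311. fkh2 B lay above both wild-type libraries, fkh2 C below both, and the log2 fold change of 0.48 was not called (edgeR adjusted p = 0.324). The highest window of pericentromere I, in vps29, held 665 and 410 counts in WT B and WT C and 708, 1624 and 427 in fkh2 A, B and C. There fkh2 A also lay above both wild-type libraries, and the log2 fold change of 0.78 was not called. At the neighbouring meiotic kinetochore gene moa1, with 564 and 372 against 365, 805 and 228 counts, fkh2 B again lay above both wild-type libraries, and fkh2 A and C lay below both.

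The subtelomeres of chromosomes I and II lost most of the mark. On 3 of the 4 arms the outermost 10 kb kept a larger share than a stretch further in. In all, 263 of their 430 windows were called reduced and none increased. The share kept was 32.8% ± 17.9 at the left end of I, 24.3% ± 14.8 at the right end of I, 15.7% ± 8.98 at the left end of II and 37.7% ± 20.4 at the right end of II (SD, n = 3 for each). Distances from an end are counted from the end of the assembly. The study reports no nucleator sequence at the right end of I or the left end of II. The left end of II was the lowest of all 12 places. Its mean normalised count was 2260 and 1305 in WT B and WT C and 241, 535 and 332 in fkh2 A, B and C, a log2 difference of -2.30 that reached the smallest exact permutation p of 0.1.

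**Figure D3:**
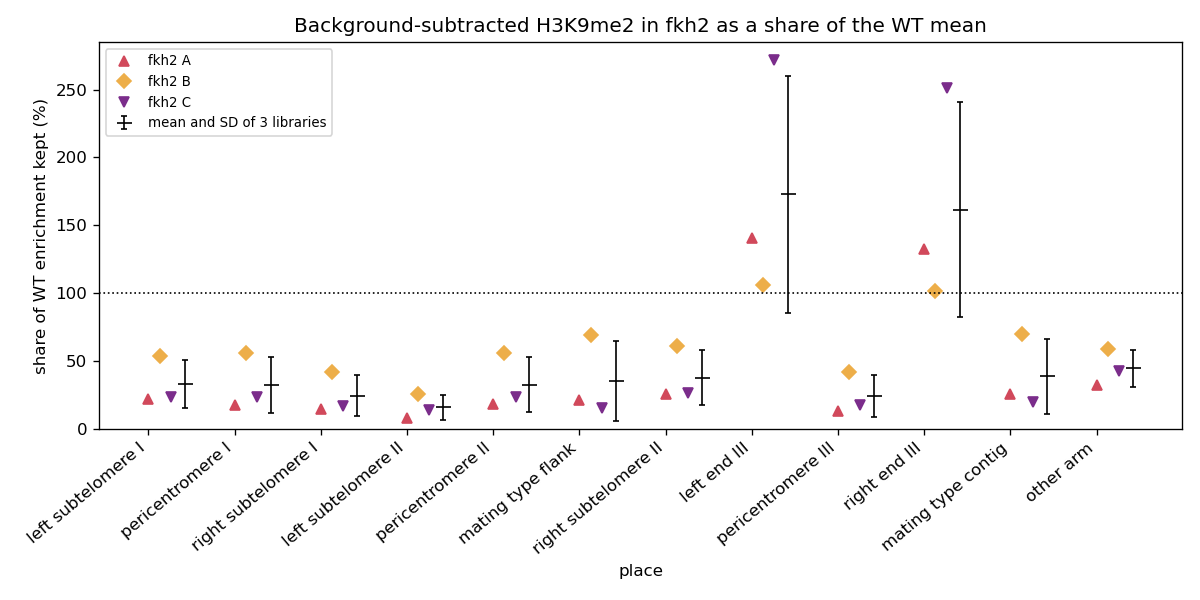
Share of the background-subtracted wild-type mean kept by each fkh2 library in the 12 places, in percent, with the mean and SD of the 3 libraries as a black bar. The left subtelomere of II is lowest at 15.7%, and both ends of III lie above 100%.

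The arms on which tlh1 and tlh2 are annotated kept the largest share at the tip. At the left end of I, the outermost 10 kb held 108-fold and 58.6-fold enrichment in the wild-type and 26.1-fold, 58.9-fold and 27.0-fold in fkh2, a share of 44.3%. Between 20 and 30 kb the wild-type stood at 38.0-fold and 22.4-fold and fkh2 at 3.40-fold, 8.30-fold and 4.51-fold, a share of 15.2%. At the right end of II the share was 61.7% over the outermost 10 kb, 39.4% from 10 to 20 kb, 19.4% from 20 to 30 kb and 14.6% from 30 to 40 kb. No window was called within 20 kb of that end, and 30 of 32 and 31 of 31 were called in the next 2 steps. Over retained windows the share rose again to 34.1% beyond 40 kb at the left end of I, where wild-type enrichment was 4.67-fold and 3.06-fold. On the other 2 arms it rose from 20 kb inward. At the right end of I it was 26.5% over the outermost 10 kb, 15.2% from 10 to 20 kb and 30.2% from 20 to 30 kb. At the left end of II it was 14.4%, 16.0% and 35.8% over the same steps. These rises rest on the windows retained there, and unfiltered bins did not all show them. The bin from 50001 to 55000 on chromosome I, without a window, stood at 2.41 and 1.82 times the median bin in WT B and WT C. In fkh2 A, B and C it stood at 0.96, 1.17 and 1.01 times, and it was called reduced. Called bins without a window also lay at the other ends of chromosomes I and II.

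The ratio of the outermost 10 kb to the stretch from 20 to 40 kb gives the gradient within each library without scaling between libraries. On the background-subtracted log2 scale it was 1.34 and 1.25 at the left end of I in WT B and WT C, and 3.24, 2.78 and 2.69 in fkh2 A, B and C. The difference of 1.61 exceeded the spread of either group (SD 0.07 and 0.30; exact permutation p = 0.1, two-sided). At the right end of II the ratio was -0.40 and -0.32 in the wild-type and 1.75, 1.35 and 1.22 in fkh2, a difference of 1.80 with the same p. The right end of I was divided at 10 kb and 20 kb instead, which leaves out the inner stretch where its share over retained windows rose again. Its ratio went from 1.79 and 1.78 to 2.89, 2.61 and 2.32, a difference of 0.82 (exact permutation p = 0.1). The left end of II divided in the same way showed 1.62 and 1.65 against 1.62, 1.44 and 1.47, a difference of -0.12 (exact permutation p = 0.3). These ratios were chosen after the profiles had been seen.

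**Figure D4:**
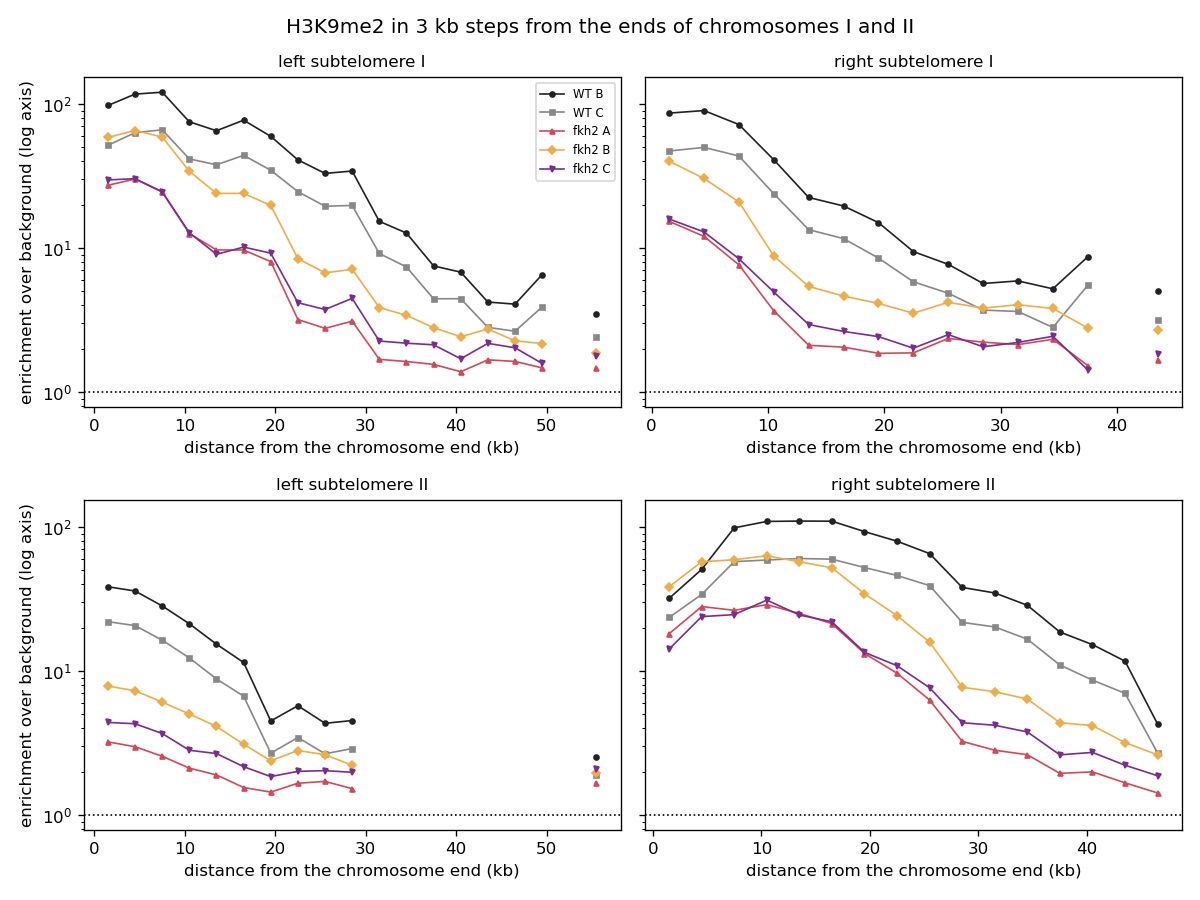
Enrichment over background (log axis) in 3 kb steps from each chromosome end, one panel per arm and one line per library. The gap between wild-type and fkh2 widens over the first 30 kb at the left end of I and the right end of II, and is already wide at the tip of the left end of II.

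The tlh1 and tlh2 genes, which encode RecQ-type helicases, were among the most strongly marked genes in both genotypes. tlh1 held 11208 and 5985 counts per window in WT B and WT C, and 3046, 6551 and 3218 in fkh2 A, B and C, so fkh2 B lay above WT C. Its log2 fold change of -1.01 (SE 0.75) was not called (edgeR adjusted p = 0.241), and none of its 19 windows was. tlh2 gave 11371 and 6146 against 3108, 6673 and 3246, and none of its 20 windows was called. The genes are near-identical copies, so reads cannot be told apart between them and their values are not independent. Over the last few kilobases of chromosome II, beyond tlh2, 17 windows had more counts in fkh2 B than in either wild-type library.

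Genes further in had lower values. ftm1 at the left end of I held 1805 and 1048 counts in the wild-type and 159, 384 and 246 in fkh2 (log2 fold change -2.44, SE 0.39, edgeR adjusted p = 8.23e-06). ftm5 and ftm6 at the left end of II (-2.47 and -2.26), ftm4 and ftm3 at the right end of I (-2.43 and -2.31) and SPBPB2B2.19c and SPBCPT2R1.04c at the right end of II (-2.38 and -2.28) had the lowest values of their arms among genes with 2 or more windows and separated groups, as did SPAC212.02 beside ftm1 (-2.43). All were reduced, with both groups separated. The highest values among such genes belonged to the flocculin gene pfl6 (-0.64), SPBC1348.10c (-0.68), the pyruvate decarboxylase gene pdc102 (-1.05) and SPBPB2B2.15 (-1.17), of which the last alone was called. The lowest single windows of the arms had log2 fold changes of -3.57, -3.01, -3.36 and -3.30 (left I, right I, left II and right II). They overlapped no annotated gene, with long non-coding RNA genes not considered.

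At the mating type locus the level differed widely between the fkh2 libraries. The contig that stands for the locus held 6590 and 3743 counts per window in WT B and WT C, and 1408, 3652 and 1106 in fkh2 A, B and C. The share kept was 25.7%, 70.1% and 19.8%, and 7 of 65 windows were called reduced (10.8%, beside 36% of all windows). The log2 difference was -1.48 (exact permutation p = 0.2, two-sided). All 3 fkh2 libraries lay below both wild-type libraries at 33 of the 65 windows. Along the contig the mean share was nearly flat, between 35.5% and 39.8% in steps of 5 kb. The cenH element of the locus is homologous to centromeric and telomeric sequences, so reads from it cannot be assigned to the locus with certainty. The flat mean therefore does not show an even loss along the locus. The 7 called windows start at positions 1, 1501, 6601, 16501, 17101, 17401 and 19801 of the contig. The lowest, at 17101, held 2284 and 1709 counts in the wild-type and 127, 589 and 156 in fkh2, a share of 9.77%. The mat1 genes outside the contig were left out of the counts by the authors.

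The mating type flank on chromosome II showed a similar level of loss, with a share kept of 21.1%, 69.3% and 15.3% in fkh2 A, B and C. This window cluster includes silent mat cassette genes as well as flanking sequence. The locus that the contig stands for holds such cassettes too, so the flank is not an independent region. Of its 46 windows 18 were called reduced (39.1%, near the 36% over all windows), and 28 lay below both wild-type libraries in all 3 fkh2 libraries. The log2 difference was -1.49 (exact permutation p = 0.2, two-sided). The lowest window, in the non-coding gene SPNCRNA.391, fell from 1538 and 1103 counts to 92, 393 and 69, with fkh2 A and C under the background of 105 to 106. Of the genes with 2 or more windows and separated groups, SPBC23G7.14 and the proteasome subunit gene rpt6 were reduced (-1.32 and -1.07), and SPBC23G7.13c had the highest value and was not called (-0.89, edgeR adjusted p = 0.0179).

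The meiotic genes mei4, ssm4 and mcp7, which carry islands of the mark, were all called reduced. mei4, which encodes a forkhead factor of meiosis, held 2046 and 1245 counts per window in WT B and WT C and 273, 454 and 187 in fkh2 A, B and C. Its log2 fold change was -2.43 (SE 0.44, edgeR adjusted p = 3.95e-05), all 6 windows were called, and 10.9%, 22.6% and 5.23% of the enrichment was kept. ssm4, for a dynactin component of meiotic nuclear movement, went from 1452 and 882 to 169, 244 and 123 (-2.71, SE 0.42, adjusted p = 8.23e-06). mcp7, a meiotic recombination gene, went from 1180 and 720 to 148, 233 and 114 (-2.53, SE 0.40, adjusted p = 8.23e-06). In fkh2 C ssm4 and mcp7 kept 1.63% and 0.89%. All 3 genes were called reduced in every alternative fit, with an adjusted p of at most 0.00308.

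The mei4 window with the lowest fold change is shown because it was the lowest of the 220 windows at scattered arm sites. The capitals mark the hexamer TTAAAC on the gene's strand, the core motif of the elements through which Mmi1 recognises meiotic transcripts.
chrII:1473601-1473900: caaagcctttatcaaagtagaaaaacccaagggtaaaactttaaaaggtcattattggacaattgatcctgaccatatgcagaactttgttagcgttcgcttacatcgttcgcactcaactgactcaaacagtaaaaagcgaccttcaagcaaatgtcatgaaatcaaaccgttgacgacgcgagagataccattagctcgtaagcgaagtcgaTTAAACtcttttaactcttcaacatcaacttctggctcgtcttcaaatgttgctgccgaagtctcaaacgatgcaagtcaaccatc

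That window fell from 2814 and 1671 counts to 229, 337 and 176 (log2 fold change -3.18, SE 0.55, edgeR adjusted p = 1.29e-07). mei4 holds 5 copies of TTAAAC on its own strand (2.254 per kb), ssm4 6 copies (2.908 per kb) and mcp7 3 copies (2.001 per kb). The median protein-coding gene has 0.26 per kb, and 1.51%, 0.55% and 2.29% of genes have as many per kb as mei4, ssm4 and mcp7. On either strand the hexamer occurs in 24.6% of all 300 bp tiles of the chromosomes and in 23.6% of the windows. A forkhead consensus, GTAAACA on either strand, occurs in none of the 17 windows centred in these 3 genes, in 7.69% of the windows called reduced, in 5.99% of the other windows on the chromosomes and in 9.16% of all tiles. GTAAACA and TTAAAC share the letters TAAAC. These matches describe letters only.

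**Figure D5:**
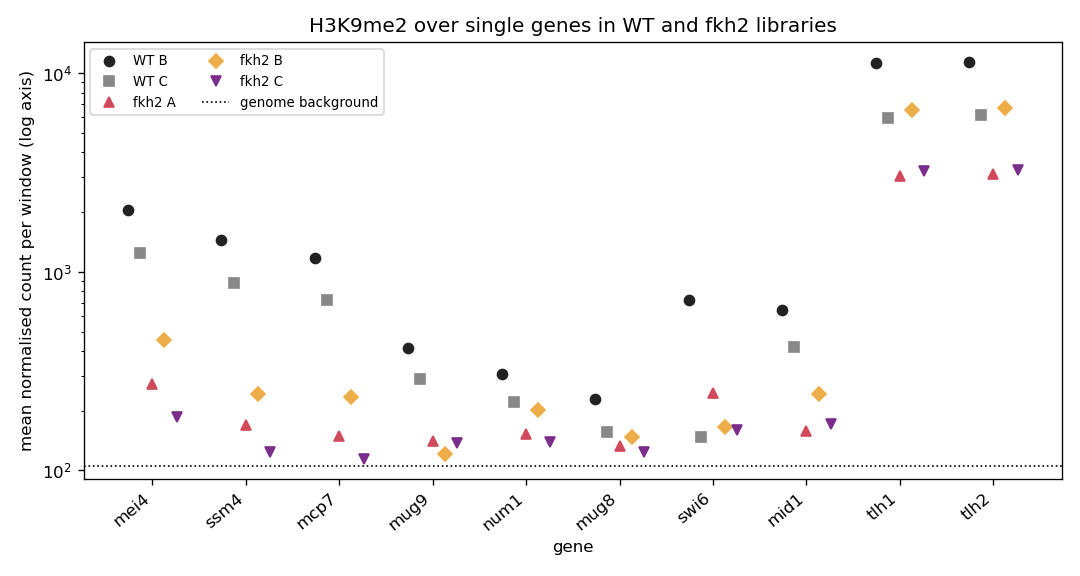
Mean normalised count per window (log axis) over 10 genes, with 1 point per library and the genome background as a dotted line. mei4, ssm4 and mcp7 drop to near background in fkh2 while tlh1 and tlh2 stay far above it.

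Of 13 island genes or Mmi1 targets matched to the annotation, 6 held windows and 4 of them were reduced, which is to be read against the 55.2% of all genes. The fourth, mug9 on the right arm of chromosome III, had 414 and 288 counts in the wild-type and 141, 121 and 138 in fkh2 (-1.40, edgeR adjusted p = 2.13e-04). num1, a cortical anchor of dynein, and mug8 were weakly marked and not called (log2 fold change -0.68 and -0.51, adjusted p = 0.0978 and 0.0593). On their own strand mug9, num1 and mug8 held 2.685, 2.116 and 1.213 copies of TTAAAC per kb. num1 thus held more per kb than mcp7 (2.001) and was not called. The median log2 fold change of the 6 was -1.92, beside -1.29 over all genes tested. SPAC8C9.04 on chromosome I had 3 of 3 windows called, at 528 and 314 against 161, 221 and 139 counts.

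Other arm sites were mixed. Their 220 windows included 33 called reduced and had a median log2 fold change of 0.06. All 13 Tf2 retrotransposons held windows and none was called, with a median of 0.13 over the elements. They were barely enriched in either genotype: Tf2-1 stood at 173 and 165 counts in WT B and WT C and at 149, 190 and 217 in fkh2 A, B and C. The ubiquitin gene ubi4 had the highest value of the arm genes with separated groups, at 217 and 199 against 255, 255 and 288, and was not called (0.36, edgeR adjusted p = 0.398). swi6 was marked mainly in 1 library, at 719 counts in WT B, 147 in WT C and 246, 166 and 160 in fkh2, so its value of -1.18 rests on WT B. It was the only gene of 18 for the heterochromatin machinery that held a window, and none of the 18 lay in a called bin.

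Both ends of chromosome III, which carry ribosomal DNA, held no window called reduced other than 1 in mug9. At the left end, 83 windows averaged 2719 and 1630 counts in WT B and WT C and 3021, 2291 and 5723 in fkh2 A, B and C. At the right end, 48 windows averaged 2628 and 1576 against 2752, 2125 and 5114. fkh2 C was the highest library at both ends and fkh2 B lay between the wild-type libraries, and the groups overlapped. The log2 differences of 0.70 and 0.61 had an exact permutation p of 0.4 each, beside SDs of 0.52 in the wild-type and 0.68 and 0.65 in fkh2. Over the 73 windows that overlap an rRNA gene the share kept was 122%, 87.3% and 265%. The ribosomal repeats are present in many copies of which the assembly holds a few, and the tables hold ChIP counts only, so the level was not set against input DNA.

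The 2 windows called increased lay at the inner edge of these blocks. The window at chrIII:24901-25200 went from 63 and 57 counts to 227, 215 and 421 (log2 fold change 2.27, SE 0.36, edgeR adjusted p = 1.97e-08). The window at chrIII:2430901-2431200, in SPCC569.03, the single gene called increased, went from 96 and 61 to 257, 248 and 369 (1.91, SE 0.36, adjusted p = 1.54e-06). In both windows all 3 fkh2 libraries lay above both wild-type libraries. The wild-type libraries lay under their background of 105 counts per window there. Both windows therefore passed the authors' abundance filter only through the counts of mutant libraries. Such a filter favours windows that are higher outside the wild-type, so these 2 p-values alone do not establish an increase. The 5 kb bins were not filtered in this way. The 5 kb bins beyond the left block showed the step: the bin from 25001 to 30000 stood at 0.46 and 0.42 times the median bin in the wild-type, under the genome background, and at 1.125, 1.02 and 2.05 times in fkh2. Farther in, the ratio in the wild-type rose towards 1, and the fold change declined from 1.704 to 0.48 on the log2 scale over the bins to 60 kb. The corresponding bin on the right, from 2430001 to 2435000, went from 0.49 and 0.48 to 1.44, 1.46 and 1.96.

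Across the whole genome, 59 of 2520 bins of 5 kb (2.34%) were called reduced and 4 (0.159%) increased by edgeR at the same thresholds. Without WT B 15 were called reduced, without WT C or without fkh2 B 89, and 8 in a fit of these 5 libraries alone. The 4 increased bins all lay at the chromosome III ends, and the number called increased was 2 without WT B, without WT C or without fkh2 C. Of the reduced bins 50 held a window and 9 held none. The 9 bordered marked regions: 1 at each end of chromosome I, 3 at each end of chromosome II and 1 at the right side of pericentromere III. The bin from 40001 to 45000 on chromosome II, for example, stood at 2.23 and 1.66 times the median bin in the wild-type and at 0.67, 0.99 and 0.74 times in fkh2. In the 2352 bins without a window the median log2 fold change was 0.00, and 5% of them lay under -0.25. Of the other listed genes, 1 of 16 for the Clr6 complex lay in a reduced bin (rxt3, beside pericentromere III), as did 1 of 10 forkhead-controlled cell cycle genes (mid1), and none of 25 wtf genes.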

How the data were processed

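H3K9me2 ChIP DNA (antibody Abcam ab1220) was sequenced in pairs. The authors trimmed reads (Trimmomatic 0.39), aligned them with Bowtie2 2.4.2 to the genome (ASM294v2 per the labels) and a contig for the mating type region, kept properly paired reads, removed duplicates (Picard 2.25.2, SAMtools 1.12) and counted fragments with csaw. The deposited counts are whole, unnormalised fragments per 300 bp window or per 5 kb bin. The authors kept only windows whose abundance over the ChIP libraries passed a multiple of the background median, left out regions around ade6, ura4, fkh2, prw1 and mat1, and dropped 2 libraries as outliers, 1 of them wild-type. Removal of duplicates can lower the highest counts.

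From these counts, DESeq2 1.42.0 median-of-ratios size factors from the bins scaled all libraries. edgeR 4.0.16 (R 4.3.3) quasi-likelihood tests were fitted on all 13 ChIP libraries with genotype as the only term, following the study, and p-values were Benjamini-Hochberg adjusted over all features (threshold 0.005, log2 fold change beyond 1). Standard errors are the log2 fold change over the square root of F. Places were set by position: within 100 kb of an end (100000 bp), the window cluster holding the centromere (gaps up to 5000 bp), and the contig. The mating type flank is the chromosome II window cluster that overlaps silent mat cassette genes, and the remaining windows are the scattered arm sites. Background per window is the median 5 kb bin scaled to 300 bp. Place levels were compared by two-sided exact permutation tests over 5 libraries. On simulated data with the dispersion of each window (median 0.15), 106 of 200 windows changed 4-fold were recovered and none of 200 changed 2-fold. A 2-fold change lies on the fold change threshold itself, which limited its recovery in advance. Named genes were mei4, ssm4, mcp7, tlh1 and tlh2 and, per place, the 2 lowest and the 1 highest log2 fold change among genes with 2 or more windows and separated groups; the lowest and highest window of each place were taken likewise. SPAC8C9.04, vps29, moa1, mid1 and swi6 were named after their values were seen or from the lists. Members and lists were chosen with earlier results of these data known. Alternatives were other scalings, tests, thresholds, filters, a replicate block and leaving out each library. DESeq2 on the 5 libraries alone, the outer to inner ratios of the subtelomeres and the ratios of tRNA to other windows were chosen after seeing the data.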

Additional observations from a re-analysis of the deposited data

How the results depend on the processing

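Counts depended on the libraries and scaling. Windows called reduced numbered 540, but 58 with only these 5 libraries, 851 at an adjusted p below 0.05, and 224 (without WT B) to 949 (without fkh2 B) when 1 library was left out. Windows called increased rose from 2 to 146 with total counts and fell to 0 without the lowest 25%. Genes called reduced were 52 with total counts and ranged from 39 to 118 with 1 library left out, against 96, and genes called increased were 3 with total counts and 0 without the lowest 25%. Bins called reduced were 18 with total counts, 8 with only these 5 libraries, 185 with no fold change threshold, and 15 to 89 with 1 library left out. Bins called increased were 14 with total counts, 69 with no fold change threshold, 2 without the lowest 25% and 2 to 5 with 1 library left out. The share kept over all windows was 33.9%, 59.4% with total counts and 24.9% to 48.2% with 1 library left out. By place the lowest such value came without fkh2 B and the highest without WT B at the right end of I (15.8% to 33.9%), the mating type flank (18.2% to 48.5%) and the contig (22.7% to 53.6%).

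The letters B and C occur in both genotypes, but no label ties a letter to a batch. Deviations from the genotype mean correlated at 0.35 between WT B and fkh2 B and at 0.26 between WT C and fkh2 C. Those of WT C and fkh2 A, with different letters, correlated at 0.32. With 2 wild-type libraries their deviations mirror each other, so these values cannot decide whether the letters pair the libraries. With the replicate block 719 windows, 96 genes and 60 bins were called reduced, and 2, 1 and 4 increased.

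With total counts pfl6 was at 0.19, SPBC1348.10c at 0.16, the highest windows of the left ends of I and II at 0.33 and 0.63, of the mating type flank at 0.20 and of the right end of I at 0.61, and the other arm level at 0.16. With 1 library left out, the highest window of the left end of II ranged from -0.393 to 0.0198 (without WT B), that of the right end of I from -0.458 to 0.087 (without WT B), that of pericentromere II from -0.452 (without fkh2 B, and below 0 also without WT C) to 0.454, that of the right end of II from -0.348 (without fkh2 B) to 0.617, and the lowest window of the left end of III from -0.224 (without fkh2 C, and below 0 also without WT C) to 0.639. With medians over windows, levels relative to the pericentromeres turned to -0.84 for all subtelomeres (from 0.30), -0.77 for the left end of I, -0.26 for pericentromere I, -0.12 for the mating type flank, -0.019 for the right end of II and -0.18 for all windows. The causes were not tested.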

Other observations

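In fkh2 B, 129 windows outside the chromosome III ends held more normalised counts than in either wild-type library. Of these, 103 lay at scattered arm sites, 17 at the right end of II, 5 at pericentromere I and 4 at pericentromere II. Between 2198401 and 2200200 on chromosome II, outside protein-coding genes, 6 windows averaged 398 and 268 counts in WT B and WT C and 326, 573 and 185 in fkh2 A, B and C. At a second site between 2338801 and 2340000 the averages were 1572 and 913 against 634, 1261 and 274. At both sites fkh2 C was the lowest library, as it was at the mating type contig and flank, whereas it was the highest at both ends of chromosome III. Whether these libraries differ in culture or preparation was not tested.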
